A study of Mus musculus with 3 samples.

Results

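Pachytene and later spermatocytes are germ cells in the long middle and late stretch of the first meiotic prophase. They were picked from 2 droplet single-cell libraries of mouse testis by counts of UMIs, the molecular identifiers that mark each captured mRNA molecule. A cell was taken when it held at least 1 UMI of *Piwil1*, at least 1 UMI of at least 2 of *Pou5f2*, *Ccna1*, *Nacad* and *Psma8*, at most 1 UMI each of *Stra8* and *Acrv1*, and fewer than 50 UMIs of *Prm1*, *Prm2*, *Tnp1* and *Tnp2* together per 10000 UMIs of the cell. Only cells with at least 200 detected genes and at most 10% mitochondrial UMIs were considered. In Tomato-negative cells the rule took 975 of 6234 and in control cells 852 of 6124, which makes 1827 of 12358, beside 19396 in the whole series.

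The Tomato-negative library pooled 3 *Ddx4-creER; R26tdTomato* mice, 8 weeks old by the labels, whose germ cells turn red after tamoxifen through a Cre driven by the germ cell gene *Ddx4*, and whose Tomato+ cells were removed by FACS. The control library pooled 3 *Scf fl/fl* mice of 6 weeks, from which haploid cells had been removed by flow cytometry on DNA content. The cKO library pooled 3 *Amh-cre; Scf fl/fl* mice of 6 weeks, in which the Sertoli cell driver *Amh-cre* deletes *Scf*, with the same removal of haploid cells. All mice were on a C57BL/6 background, each group was 1 library with no replicate, and the Tomato-negative and control mice differed at once in age, genotype and gate, so that these cannot be told apart. The selected cells held the germ cell marker *Ddx4* in both libraries, with a UMI in 968 Tomato-negative and 850 control spermatocytes.

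Spermatocytes in pachytene have paired their homologous chromosomes along the synaptonemal complex and finish recombination there. The X and Y chromosomes, which pair only over a short stretch, are wrapped into the sex body and silenced, a state known as meiotic sex chromosome inactivation. Pachytene is also when the MYB family factor MYBL1 drives a large wave of testis transcription, when pachytene piRNAs are made, and when mRNAs for the meiotic divisions and for the later spermatid are laid down.

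The Tomato-negative library held 195380762 UMIs in 7626 barcodes, the control library 90453018 in 6264 and the cKO library 68602272 in 7252. The selected spermatocytes were very rich in RNA and held 38.35% and 46.94% of all UMIs of the first 2 libraries. Their median depth was 81366 UMIs and 7485 genes in Tomato-negative and 50779.5 UMIs and 6535 genes in control cells, against 8134 and 4798 UMIs in early prophase cells. The deepest cells held 172968 and 141737 UMIs and the shallowest 2329 and 4239. Scrublet marked 69 (7.077%) Tomato-negative and 48 (5.634%) control spermatocytes as doublets, which were left in. Between 9 and 15 barcodes were shared by any pair of libraries, and 0 of those were spermatocytes in both.

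The genes of the rule are given as a description, since they chose the cells. Levels are UMIs per 1000000 UMIs (CPM) summed over the cells of a class, each molecule being counted by 1 tag at its 3′ end with no division by gene length. *Piwil1*, a piRNA-binding Argonaute protein, stood at 153.8 CPM in Tomato-negative and 373.4 in control spermatocytes. *Pou5f2*, a POU family factor, stood at 70.26 and 109.1 CPM, the meiotic cyclin *Ccna1* at 356.6 and 237.7, and the germ cell proteasome subunit *Psma8* at 135.2 and 225.7. *Nacad* went against its place among the markers: it gave 20 UMIs in all Tomato-negative and 12 in all control spermatocytes, 0.267 and 0.2826 CPM, where early prophase cells had 41.52 and 26.63. In practice the rule therefore asked for 2 of 3 genes. Of the exclusion genes, the acrosomal *Acrv1* stood at 3.083 and 0.683 CPM, against 387.6 and 503.5 in round spermatids.

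At the edge of the rule, 100 Tomato-negative and 187 control spermatocytes had exactly 2 of the late markers, with median depths of 35843 and 35533 UMIs. Just outside it, 90 and 258 cells had *Piwil1* and only 1 late marker, with medians of 15408.5 and 13876.5 UMIs, and 101 and 75 cells had the late markers without *Piwil1*. Before the exclusions 1522 Tomato-negative and 963 control cells had *Piwil1* and at least 2 late markers. Of these, 430 and 76 were over the *Acrv1* limit, 139 and 36 over the *Stra8* limit and 40 and 3 over the protamine limit. Some cells were over more than 1 limit. The *Acrv1* limit kept 231 and 29 cells with 1 UMI. Among cells within the other limits it left out 55 and 6 with 2 UMIs. The count of protamine and transition protein UMIs reached 33.57 and 20.07 per 10000 UMIs in the cells kept, below the limit of 50, with medians of 1.734 and 0.6563. The selection is thus a range of marker counts and not a stage seen under the microscope.

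Promoter sequences were compared because MYB family factors are known to act on many pachytene promoters. The 250 bases before the RefSeq start site are printed for some of the genes whose window held 0 bases of an annotated exon on the same strand: the rule genes *Pou5f2* and *Nacad*, and 3 of the 12 genes that most exceeded early prophase cells, *Ankar*, *Speer2* and *Gk2*. Capitals mark each match to the MYB core AACNGNC on either strand (GNCNGTT when read on the other), where N is any base. The build is GRCm38.p6. The windows are chr13:78024652-78024901 on the plus strand for *Pou5f2*, and on the minus strand chr11:6606055-6606304 for *Nacad*, chr1:72700580-72700829 for *Ankar*, chr16:69863745-69863994 for *Speer2* and chr5:97457024-97457273 for *Gk2*.
Pou5f2: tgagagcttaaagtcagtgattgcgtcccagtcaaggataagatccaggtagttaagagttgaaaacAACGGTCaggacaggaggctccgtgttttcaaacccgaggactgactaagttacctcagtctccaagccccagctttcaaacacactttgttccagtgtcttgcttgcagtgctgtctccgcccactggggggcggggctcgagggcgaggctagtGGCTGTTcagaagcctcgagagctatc
Nacad: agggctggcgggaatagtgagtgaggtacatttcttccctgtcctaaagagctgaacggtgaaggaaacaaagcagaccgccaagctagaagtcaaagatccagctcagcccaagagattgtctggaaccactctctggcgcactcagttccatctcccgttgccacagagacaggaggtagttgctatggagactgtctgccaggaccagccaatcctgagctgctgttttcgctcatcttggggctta
Ankar: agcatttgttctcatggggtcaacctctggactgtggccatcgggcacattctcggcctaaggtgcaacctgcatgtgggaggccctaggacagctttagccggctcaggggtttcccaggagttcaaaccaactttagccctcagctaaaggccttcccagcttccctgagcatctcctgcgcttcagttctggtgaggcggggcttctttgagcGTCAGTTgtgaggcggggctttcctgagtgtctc
Speer2: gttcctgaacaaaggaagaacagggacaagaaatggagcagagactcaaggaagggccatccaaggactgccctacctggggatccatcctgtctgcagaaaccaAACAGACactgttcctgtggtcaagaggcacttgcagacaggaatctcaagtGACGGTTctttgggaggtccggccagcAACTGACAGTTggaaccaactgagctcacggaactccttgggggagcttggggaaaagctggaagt
Gk2: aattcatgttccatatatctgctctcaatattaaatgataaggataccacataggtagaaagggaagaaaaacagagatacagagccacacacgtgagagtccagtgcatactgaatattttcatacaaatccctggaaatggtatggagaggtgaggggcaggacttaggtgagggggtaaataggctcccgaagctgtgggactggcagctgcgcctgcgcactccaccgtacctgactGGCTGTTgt
The *Pou5f2* window held 2 matches, *Ankar* 1, *Speer2* 4 (2 of them overlapping), *Gk2* 1 and *Nacad* 0. The window of *Tmbim7*, another of the 12 with 0 exon bases, held 0 matches and is not printed. Of the 12, *Spag17*, *Nkapl* and *Ccdc83*, whose windows held exon bases, also had 0 matches, and *4930500F10Rik* and *Pbp2* had 1 each.

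Over whole windows of 300 bases, 32.77% of all 27025 RefSeq promoters held the MYB core. It was held by 35.2% of the 10138 promoters of genes tested against early prophase cells in both libraries, by 43.82% of 2437 promoters of genes at least 2-fold higher in the spermatocytes in both libraries, and by 30.73% of 4614 promoters of genes at least 2-fold lower in both. The RFX site GTTNCCATG was in 1.924%, 1.736%, 2.913% and 1.019% of the same sets, and the CRE core TGACGT in 7.645%, 12.12%, 9.027% and 13.18%. The MYB and RFX letters were thus more frequent before genes that stood higher, and the CRE letters more frequent before genes that stood lower. A match is a description of letters and no evidence that a factor binds there, and base composition was not matched between the sets.

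Among the most abundant messages of the spermatocytes were germ cell forms of metabolic and structural genes. *Ldhc*, the germ cell subunit of lactate dehydrogenase, stood at 7627 CPM (95% Poisson interval 7608 to 7647) in Tomato-negative and 7923 (7896 to 7950) in control spermatocytes, against 312.1 and 251.9 in early prophase cells. All intervals given here cover counting error only. *Meig1*, needed to build the sperm manchette, stood at 7706 and 5814 CPM, *Lyar*, a nucleolar zinc finger protein, at 5115 and 4912, and the fatty acid binding protein *Fabp9* at 3592 and 4079. The glutathione transferase *Gstm5*, *Asrgl1*, *Rbakdn*, *Ropn1l*, *Gkap1* and *Pebp1* completed the 10 highest in both libraries, all between 3386 and 4564 CPM. The order of the 10 differed between the libraries, but no gene of them differed by 2-fold.

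Early prophase cells, the neighbouring earlier class, were taken by at least 3 of *Prdm9*, *Meiob*, *Dmc1*, *Rad51ap2*, *Gm960*, *Sycp1* and *Hormad1*, no *Piwil1* or *Acrv1* UMI, at most 1 *Kit* UMI and the same protamine limit. They numbered 825 in Tomato-negative and 1615 in control cells, and 321 and 303 of them also met the Kit-based rule for differentiating spermatogonia. A gene was called when its CPM differed at least 2-fold with at least 50 UMIs over both sums. There was no replicate and so no test. Of 16082 genes in Tomato-negative cells, 28.3% were called higher and 48.5% lower in the spermatocytes, and of 14409 in control cells 29.4% and 46.3%. The median gene stood at 0.5356 and 0.6059 times its early prophase level. Counted relative to that median, 50.77% and 50.43% of called genes were higher, in place of 36.88% and 38.86%. So counted, 6090 genes were higher and 5906 lower in Tomato-negative cells, and 5374 and 5283 in control cells. Counts of listed genes relative to the median gene are to be read beside these, and unscaled counts beside the shares. Of 14203 genes tested in both libraries, 3754 were higher in both, or 92.05% of those called in Tomato-negative cells and 89.79% of those called in control cells, 6212 were lower in both, and 13 were called in opposite directions.

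The 12 genes highest above early prophase cells were ranked by the interval end nearest to 1. The uncharacterised *4930500F10Rik* stood at 78.16 and 70.84 CPM, 64.57-fold (35.08 to 134.7) and 91.97-fold (44.58 to 229) higher. *Ankar*, an ankyrin and armadillo repeat protein, stood at 353.2 and 397.9 CPM, 43.55-fold and 42.55-fold higher. *Spag17*, a protein of the axoneme's central apparatus, stood at 690.9 and 735.1 CPM, 40.77-fold and 38.84-fold higher. *Pbp2*, *Pabpc2*, *Nkapl*, *Tmbim7*, *Speer2*, *Pabpc6*, *Gk2*, *Ccdc83* and *AC117700.1* were between 33.92-fold and 46.55-fold higher in either library. *Pabpc2*, *Pabpc6*, *Nkapl* and *Gk2* are retrogene relatives of genes used in other cells: poly(A)-binding proteins, an NF-κB activating protein and glycerol kinase.

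Among the 8 genes lowest against early prophase cells were meiotic ones. *Rad21l*, a meiotic cohesin subunit, stood at 0.1602 and 0.2826 CPM against 73.48 and 101.2. The protease *Prss50* stood at 3.15 and 3.085 CPM against 582 and 529.2, and *Dmc1*, the meiotic strand exchange recombinase, at 1.014 and 1.743 against 172.8 and 296.3. *Gm4969*, *Gm12260*, *Ugt8a*, *Alcam* and *Ctcfl*, the testis paralogue of CTCF, were the others, all at or under 1.083 CPM in the spermatocytes. *Dmc1* was used to choose the early prophase cells, so that its difference is a description. Of the 11 markers of differentiating spermatogonia outside the rule, all but *Dmrtb1* were lower in each library, *Kit* among them having been limited in choosing the early prophase cells, and of those of undifferentiated spermatogonia 9 of 10 and 7 of 9 were lower and 1 higher. The shares lower over all genes were 48.5% and 46.3%.

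Genes on the sex chromosomes, which the rule did not use, gave few UMIs in these cells. X-linked genes gave 0.1162% (exact 95% interval 0.1154% to 0.117%) of the UMIs of Tomato-negative and 0.05241% (0.05173% to 0.05311%) of those of control spermatocytes. The share was 2.354% and 2.24% in early prophase cells, 2.242% and 2.08% in differentiating spermatogonia, 0.8283% and 0.9629% in round spermatids and 3.818% and 3.531% in somatic cells. The spermatocytes were thus lowest of the 5 classes in each library. The median cell stood lower still, at 0.06933% and 0.02438%, and the mean over cells higher, at 0.1821% and 0.0652%. Y-linked genes gave 0.002037% and 0.0008619% of UMIs in the spermatocytes against 0.03626% and 0.04934% in early prophase cells. Mitochondrial transcripts were also low, at 0.3437% and 0.3032% against 2.147% and 2.077%.

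**Figure D1:**
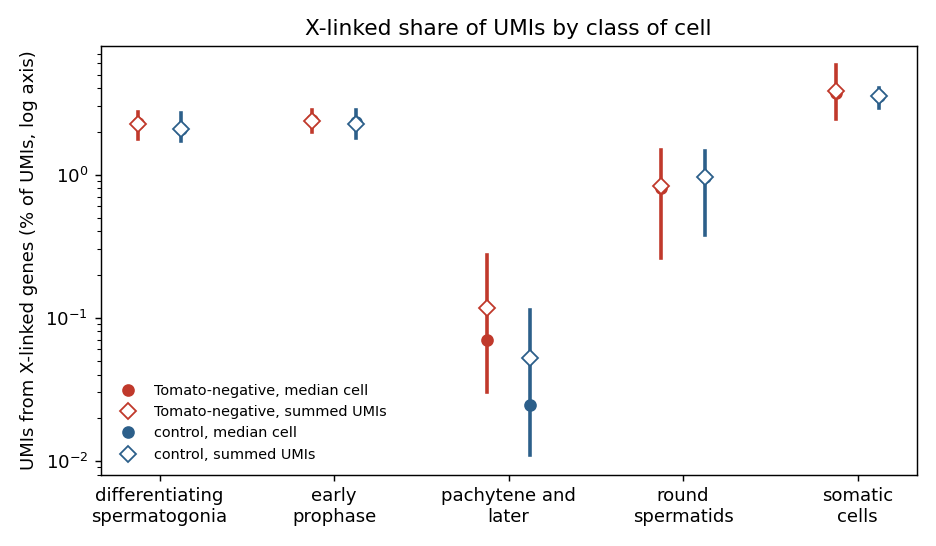
Share of UMIs from X-linked genes (percent, log axis) in 5 classes of cell of the Tomato-negative (red) and control (blue) libraries. Circles are the median cell, bars run from the 10th to the 90th percentile of cells, and open diamonds are the summed UMIs; pachytene and later cells have the lowest share of the 5 classes, 0.1162% and 0.05241% of summed UMIs.

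The X-linked share was highest in cells that were shallow, called doublets or carried markers of another cell type. The 38 Tomato-negative spermatocytes under 20000 UMIs gave 1.444%, and the 57 such control cells 0.1755%, against 0.1078% and 0.05035% in deeper cells. Called doublets gave 0.3903% and 0.3132%, and the others 0.09502% and 0.03771%. The 49 and 19 cells with over 1000 CPM of Sertoli, Leydig, myoid, stromal or immune markers gave 0.6236% and 0.3779%. The methods of the study set an upper limit of 3500 unique counts. Read here as at most 3500 detected genes, it left 11 and 18 spermatocytes. These gave 1.547% and 0.2474%, the former above the share of all round spermatids. That reading left 3637 control cells, fewer than the study kept, so the study may not have used it so. Thinning every cell to 3000 UMIs, which weights cells equally, gave 0.1873% and 0.06534%. A share over 1% was found in 33 Tomato-negative and 4 control cells, with median depths of 16288 and 8192 UMIs.

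Most X-linked genes were lower. Of 482 tested in Tomato-negative cells, 436 (90.46%) were at least 2-fold lower than in early prophase cells and 21 at least 2-fold higher, with a median log2 ratio of -4.80. In control cells 381 of 397 (95.97%) were lower and 5 higher, with a median of -6.12. On single autosomes between 44.57% and 50.04% of Tomato-negative and between 40.58% and 49.35% of control genes were lower. Among 391 X-linked genes tested in both libraries, 367 were at least 2-fold lower in both and 322 at least 10-fold lower in both. All 8 tested genes of the Y list were lower in both libraries: the translation factor gene *Eif2s3y* stood at 5.459 and 2.638 CPM against 162.6 and 208.3, and the RNA helicase gene *Ddx3y* at 1.014 and 0.8243 against 48.54 and 72.51.

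Only 6 of the 391 stood above their early prophase level in both libraries. *Tsga8*, a testis gene known from haploid cells, stood at 63.96 CPM in Tomato-negative and 24.73 in control spermatocytes, 2.841-fold (2.453 to 3.307) and 3.079-fold (2.427 to 3.959) higher, while round spermatids held 722.8 and 782.8 CPM. The deubiquitinase gene *Usp51* stood at 8.636 and 5.746 CPM, 4.196-fold and 2.271-fold higher. The others were *4930595M18Rik*, *Spin2-ps2*, *Gm15361* and *Gm21887*, none of them above 7.194 CPM. The intervals of *Gm21887* included 1 in both libraries, at 1.44 (0.8662 to 2.567) and 1.525 (0.7239 to 3.701). That of *Gm15361* did so in control cells, at 1.926 (0.8822 to 4.986). *Spin2-ps2* gave 0 UMIs in early prophase cells of both libraries, so that its ratios are bounds. The 10 tested X-linked genes of a list for expression after meiosis were all lower than in round spermatids in both libraries, such as the fibrous sheath gene *Akap4*, at 2.696 and 1.319 CPM against 216.1 and 409.1. Of all tested X-linked genes 65.11% and 83.54% were lower than in round spermatids.

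X-linked genes whose work is needed in every cell often have an autosomal copy used in the testis. All 9 X-linked parents of such copies were lower in the spermatocytes than in early prophase cells in both libraries, and 6 of their 9 copies were higher in both. Of all tested X-linked genes 90.46% and 95.97% were lower, so that the parents did as most X-linked genes did. Over all genes 28.3% and 29.4% were higher. The glycolytic kinase gene *Pgk1* stood at 1.655 and 2.638 CPM against 34.26 and 33.56, and its retrogene *Pgk2* on chromosome 17 at 279 and 216.1 against 14.41 and 9.463. The ribosomal protein gene *Rpl10* stood at 9.183 and 9.232 CPM against 355.1 and 436.4, and its autosomal copy *Rpl10l* at 177 and 138.6 against 31.84 and 22.67. The centrosome gene *Cetn2* stood at 2.443 and 0.7772 CPM against 60.04 and 46.87, and *Cetn1* at 1997 and 1792 against 77.36 and 57.44. The copies *Pdha2*, *Gykl1* and *Rpl39l* were 4.561-fold to 24.49-fold higher. The copies *Utp14b*, *Rbmxl2* and *Cstf2t* did not reach 2-fold higher in either library, at ratios from 0.4548 to 1.331, and *Rbmxl2* was called lower in Tomato-negative cells.

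**Figure D2:**
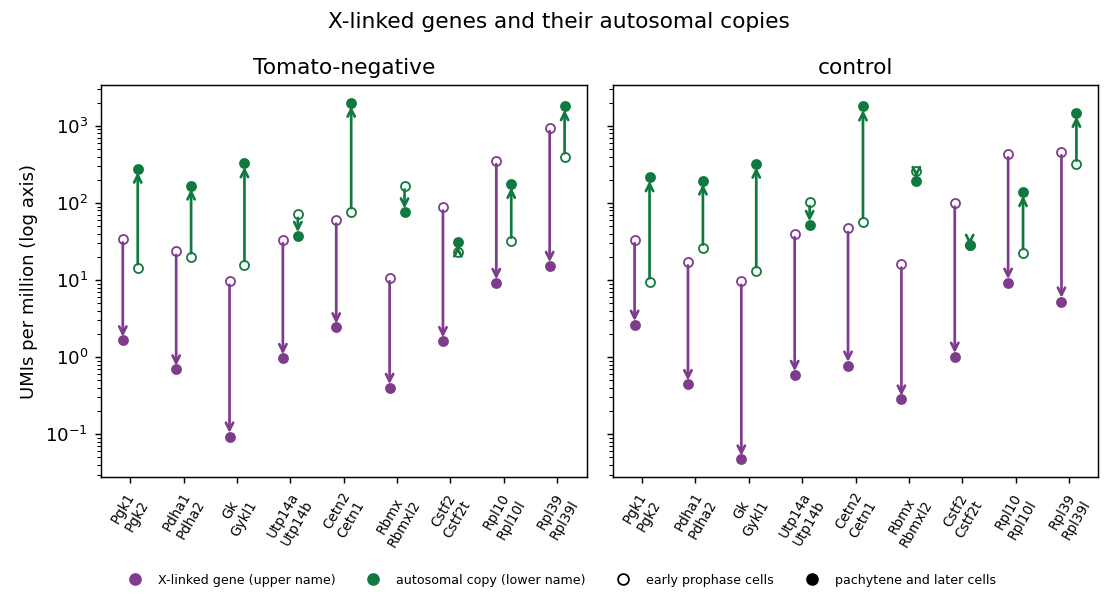
Levels (CPM, log axis) of 9 X-linked genes (purple) and their autosomal copies (green) in early prophase cells (open circles) and pachytene and later cells (filled circles), with an arrow from the former to the latter, in each library. All 9 X-linked genes point down, while 6 of 9 copies, among them *Pgk2* and *Cetn1*, point up by more than 2-fold.

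Even among deep spermatocytes the X-linked share was spread over 2 ranges. Among cells with at least 30000 UMIs, 913 Tomato-negative and 738 control, a histogram of the share in steps of 0.1 on the log10 scale had 2 peaks in each library. In Tomato-negative cells 118 cells lay in the step from 0.0316% to 0.0398% and 136 in that from 0.1% to 0.126%, with 52 between them at 0.0631% to 0.0794%. In control cells the lower peak held 99 cells at 0.0126% to 0.0159% and the upper 47 at 0.0794% to 0.1%, with 20 at 0.0501% to 0.0631%. Limits set after these values were seen put 423 Tomato-negative and 569 control cells under 0.06% and 323 and 90 cells between 0.08% and 0.2%, while 83 and 42 lay between the ranges and 84 and 37 above them. These are ranges of a score and not cell types, and since the X-linked share defined them, what follows on X-linked genes is a description.

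The cells of the 2 ranges were alike in depth, at medians of 82285 and 81445 UMIs in Tomato-negative and 52633 and 51789.5 in control cells. Doublets were called in 0 of the lower and 5 of the upper Tomato-negative cells and in 2 and 6 of the control cells. Many X-linked genes shared in the upper range: 93 of 161 tested in Tomato-negative and 46 of 59 in control cells were at least 2-fold higher there, 0 were lower, and 40 of 58 tested in both libraries were higher in both. Over all genes 1.19% were higher and 0.278% lower in Tomato-negative cells, and 1.67% and 9.23% in control cells. Of 10919 autosomal genes tested in both, 3 were higher in both and 6 lower in both.

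Single X-linked genes differed by more than the sum. The uncharacterised *Gm7173* stood at 1.06 CPM in the lower and 24.22 in the upper Tomato-negative cells, and at 0.9223 and 29.04 in control cells. The glycosylation gene *Alg13* stood at 2.206 and 27.24 CPM and at 1.049 and 22.04. *Fmr1*, which encodes an RNA-binding protein that controls translation, stood at 1.949 and 17.45 CPM and at 1.781 and 22.89. *Pgk1*, among the least different, stood at 0.917 and 1.045 CPM and at 2.481 and 1.484, on 32 and 27 and on 78 and 7 UMIs. These genes were named for the size of their ratio, after the values were seen.

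The Y-linked sum differed between the ranges in opposite directions in the 2 libraries. Summed Y-linked UMIs stood at 17.08 CPM (15.73 to 18.51) in the lower and 11.92 (10.62 to 13.33) in the upper Tomato-negative cells, but at 5.311 (4.536 to 6.18) and 9.326 (6.776 to 12.52) in control cells. Within the last 2 of the 5 bins of the order given further on the intervals overlapped, at 15.07 (13.18 to 17.16) and 12.45 (10.39 to 14.81) in Tomato-negative and 6.482 (5.163 to 8.036) and 7.689 (4.479 to 12.31) in control cells. The Y-linked deubiquitinase gene *Usp9y* stood at 3.152 and 0.9287 CPM in Tomato-negative and 0.9541 and 2.331 in control cells. *Pou5f2*, an autosomal gene of the rule, was lower in the upper range of both, at 84.79 and 48.79 CPM and at 123.9 and 65.49. The meiotic cyclin gene *Ccnb1* stood at 233.9 and 275.5 CPM in Tomato-negative cells and at 128.5 and 269.2 in control cells, and it is a gene of the later bins in that order. Within the last 2 bins, 18 of 22 X-linked genes tested in both libraries were higher in both. This is a description, since the X-linked share defined the ranges in these bins too. Of 8972 autosomal genes, 2 were higher in both and 6 lower in both.

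**Figure D3:**
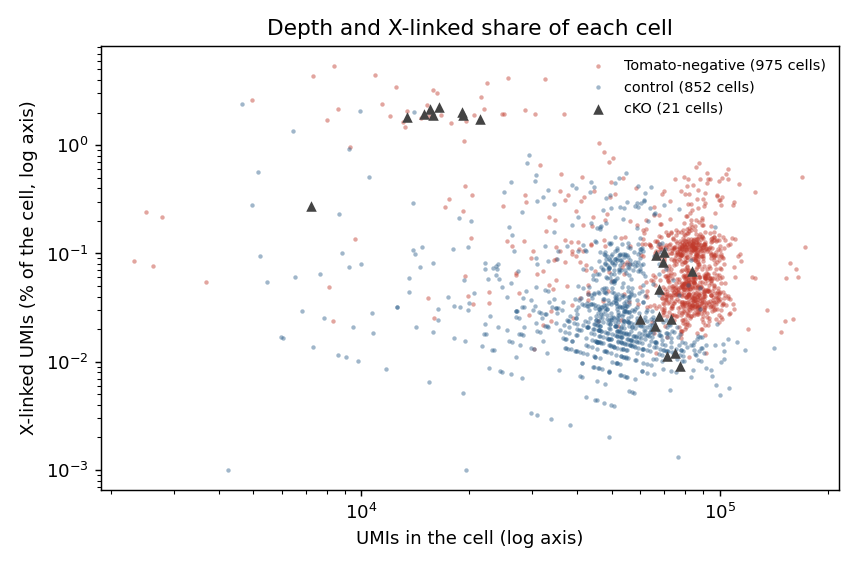
Each point is 1 pachytene or later cell, placed by its UMIs (log axis) and by the share of them from X-linked genes (percent, log axis); red is Tomato-negative (975 cells), blue control (852) and black triangles cKO (21), and 2 control cells with a share of 0 are drawn at 0.001. Deep cells form an upper and a lower cloud in each library, and shallow cells with a share over 1% lie at the upper left.

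The genes of chromosome pairing stood low. In each library 12 of the 14 tested genes of the synaptonemal complex and chromosome axes were called lower than in early prophase cells and 1 higher (8 and 10 lower relative to the median gene). Over all genes 48.5% and 46.3% were lower without scaling, and 5906 of 16082 and 5283 of 14409 relative to the median gene. The lateral element gene *Sycp3* stood at 399.7 and 397.4 CPM against 1128 and 1419, and the cohesin *Smc1b* at 287.6 and 417.7 against 1271 and 1584. *Syce1*, a central element gene, was the exception, at 761.9 and 763.8 CPM against 324.4 and 322.7, 2.348-fold and 2.367-fold higher. Another central element gene, *Syce2*, stood at 17.1 and 30.24 CPM against 599.1 and 632. *Sycp1* and *Hormad1* of this list were used to choose the early prophase cells.

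Of 25 tested recombination genes, 21 were lower in each library, with median log2 ratios of -4.32 and -3.66 beside -0.90 and -0.72 over all genes. *Tex15*, needed for the repair of meiotic DNA breaks, stood at 10.01 and 10.32 CPM against 1332 and 1686. Higher in both libraries were *Psmc3ip*, a partner of DMC1 that was entered among the early genes of the order score, at 386.9 and 478.8 CPM against 106.5 and 118.2, *Cntd1*, a cyclin-like crossover factor, at 117.8 and 144.1 against 30.51 and 50.94, and *Spo11*, which makes the breaks, at 93.45 and 91.63 against 11.74 and 38.51. The crossover gene *Mlh3* stood at 64.63 and 107.1 CPM, 1.893-fold and 2.13-fold higher. *Prdm9*, *Meiob*, *Dmc1* and *Gm960* of this list were used to choose the early prophase cells.

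Of 14 genes of the sex body and of DNA damage signalling, 12 were lower in each library and 0 higher, beside 48.5% and 46.3% lower over all genes. Relative to the median gene 7 were lower in each library, and 0 were higher in Tomato-negative and 1 in control cells. By that scaling 5906 of 16082 and 5283 of 14409 genes were lower over all. The kinase gene *Atr* stood at 186.1 and 278.6 CPM against 358.2 and 688.2, *Mdc1*, which spreads the signal over the X and Y, at 69.02 and 101.3 against 162.6 and 245.1, and *Brca1* at 2.603 and 3.438 against 142.7 and 164.2. *Brca1*, *Ubr2* and *Topbp1* stood at or under 12.89 CPM in Tomato-negative spermatocytes. *Atr* and *Mdc1* were nonetheless 3.681-fold and 2.544-fold higher than in round spermatids in Tomato-negative cells, and 6.767-fold and 6.22-fold in control cells.

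**Figure D4:**
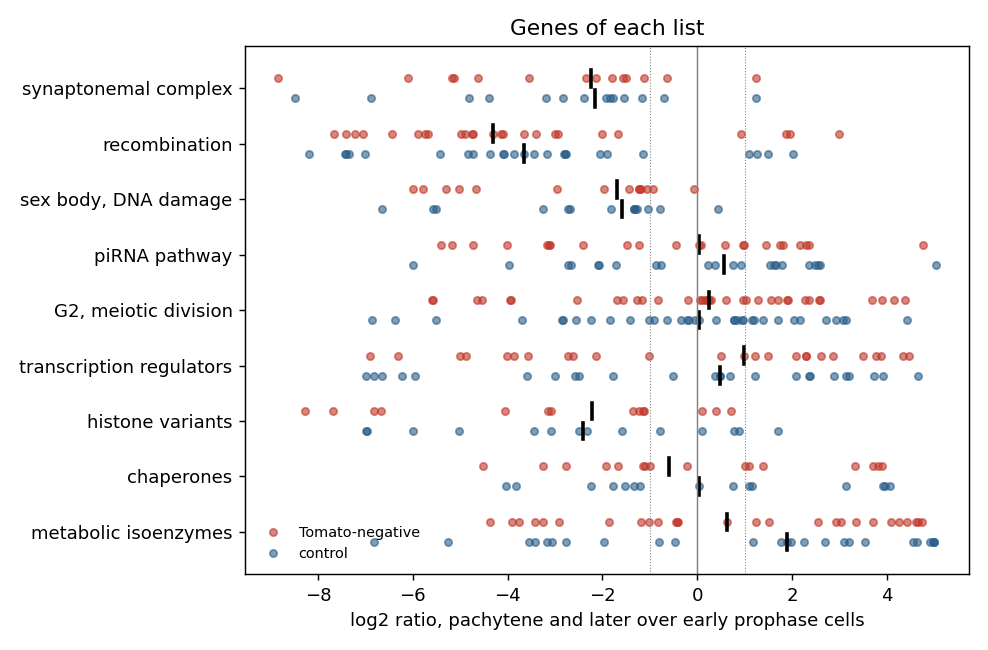
Each point is a tested gene of the list named on the left, placed by the log2 ratio of its CPM in pachytene and later over early prophase cells, Tomato-negative in red and control in blue; black bars are medians, dotted lines mark 2-fold. Of the 9 lists shown, recombination genes have the lowest medians, -4.32 and -3.66, and metabolic isoenzymes the highest in control cells, 1.89.

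Of 23 piRNA pathway genes tested in Tomato-negative cells 7 were higher and 10 lower than in early prophase cells, and of 22 in control cells 9 were higher and 7 lower. These counts stood beside 28.3% and 48.5%, and 29.4% and 46.3%, over all genes. Relative to the median gene the piRNA counts were 10 and 8, and 12 and 6. By that scaling 6090 and 5906 of all 16082 genes, and 5374 and 5283 of 14409, were higher and lower. *Tdrd6*, a Tudor protein of the chromatoid body, stood at 351.4 and 472.7 CPM against 13.07 and 14.52, 26.88-fold and 32.55-fold higher. *Tcfl5*, a transcription factor of the pachytene piRNA loci, stood at 594.7 and 816.4 CPM against 121.7 and 159.4, and *Mael*, needed for the export of piRNA precursors, at 625.5 and 759 against 229.9 and 247.3. *Gtsf1*, *Pld6*, *Henmt1* and *Tdrd7* were also higher in both. Among the lower genes were *Tex19.1* at 3.07 and 5.911 CPM against 111.3 and 93.09, the chaperone *Fkbp6* at 31.02 and 56.29 against 497.8 and 371.7, and the helicase *Mov10l1* at 36.88 and 76.3 against 331.8 and 484.2. *Mybl1* stood at 144.8 and 162.8 CPM, 1.968-fold and 1.295-fold its early prophase level, and so was not called. *Tdrd1* and *Tdrd5* were called higher in control cells only, where they stood at 163.7 and 84.05 CPM, in place of 48.64 and 24.43 in Tomato-negative cells. That difference between the libraries was not tested.

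Of the genes for the G2 state and the meiotic divisions, 14 of 35 were higher and 11 lower in Tomato-negative cells, and 11 and 11 of 35 in control cells (21 and 7, and 17 and 9, relative to the median gene). Over all genes 28.3% were higher and 48.5% lower, and 29.4% and 46.3%, without that scaling. With it 6090 and 5906 of 16082 genes, and 5374 and 5283 of 14409, were higher and lower. *Hspa2*, the heat shock protein needed for cyclin B to bind CDK1 in spermatocytes, stood at 1778 and 1994 CPM against 120.1 and 226.1. The mitotic kinase *Aurka* stood at 467.4 and 337.1 CPM against 36.2 and 40.27, and its germ cell relative *Aurkc* at 51.61 and 42.65 against 2.905 and 1.981. *Fbxo43*, an inhibitor of the anaphase-promoting complex, was 20.8-fold and 7.589-fold higher. *Cdk1* stood at 199 and 137.7 CPM against 61.26 and 60.08, and *Plk1* at 196.2 and 125.3 against 33.17 and 48.08. Among the lower genes were cyclins of S phase and of the mitotic cycle, cyclin A2 (*Ccna2*) at 4.245 and 2.308 CPM against 98.78 and 105.1 and cyclin E2 (*Ccne2*) at 6.247 and 21.43 against 302.8 and 152.

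Among 25 transcription regulators of late prophase and of spermatids, 12 were higher and 11 lower in Tomato-negative and 10 and 10 in control cells. Relative to the median gene 14 were higher and 10 lower in each library. The unscaled shares over all genes were 28.3% higher and 48.5% lower, and 29.4% and 46.3%. Relative to the median gene 6090 and 5906 of 16082 genes, and 5374 and 5283 of 14409, were higher and lower. *Ovol2*, a zinc finger repressor, stood at 283.8 and 217.1 CPM against 12.83 and 8.582. *Phf7*, a reader and ligase of histones, stood at 2645 and 3684 CPM, 14.6-fold and 13.14-fold higher, and *Tbpl1*, a relative of the TATA-binding protein, at 1239 and 1014, 11.32-fold and 8.831-fold higher. *Kctd19*, a partner of ZFP541 at pachytene exit, was 20.32-fold and 9.152-fold higher, and the RFX factors *Rfx2* and *Rfx4* between 7.311-fold and 15.15-fold. *Sox30*, a factor of the haploid programme, stood at 61.28 and 65.12 CPM against 14.53 and 28.06. Lower genes included the X-linked *Taf7l* and *Taf9b*, the Y-linked *Zfy1* and *Zfy2*, and *Sox5*, which at 2.042 and 2.072 CPM was far under the 283.7 and 449.3 of round spermatids. *Dmrtb1*, which was listed as a marker of spermatogonia, went against that list at 987.1 and 912.4 CPM, 14.64-fold and 14.63-fold above early prophase cells.

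Of 14 histone genes 11 were lower and 0 higher in Tomato-negative and 9 lower and 1 higher in control cells, beside 48.5% and 46.3% lower over all genes. Relative to the median gene 7 were lower and 2 higher, and 8 and 3. By that scaling 5906 and 6090 of all 16082 genes, and 5283 and 5374 of 14409, were lower and higher. The testis histone gene *Hist1h2aa* stood at 6.58 and 33.61 CPM against 2045 and 2133, and its partner *Hist1h2ba* at 2.309 and 28.92 against 259.3 and 313.7. The linker histone gene *Hist1h1t*, known for pachytene cells, stood at 10.5 CPM in Tomato-negative and 118.7 in control spermatocytes. Histone mRNAs largely lack a poly(A) tail, on which the capture rests, so that their levels here are those of the captured part. The replacement variant *H2afz* was among the few not lower, at 1262 and 1620 CPM against 768 and 886.8. The gene called higher without that scaling was *H2afy*, which encodes macroH2A1, in control cells, at 214.9 CPM against 66.46.

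Of 16 chaperones tested in Tomato-negative cells 7 were higher and 7 lower, and of 15 in control cells 6 and 7 (7 and 4 in each relative to the median gene). Without that scaling the share that was lower was thus close to the 48.5% and 46.3% over all genes. Beside *Hspa2*, the calnexin relative *Clgn* stood at 1017 and 947.1 CPM against 78.32 and 63.16, and *Dnajb3* at 1082 and 1086 against 77.6 and 70.09. Some general forms stood lower: *Hspa8* at 21.3 and 41.54 CPM against 491.5 and 584.3, *Hsp90ab1* at 254.1 and 427.2 against 1729 and 2029, and *Hspa5* at 751.3 and 748.9 against 1614 and 2577. The calreticulin form *Calr3* and the disulfide isomerase *Pdilt* were under 1 CPM although they are germ cell forms, and round spermatids held 132.7 and 284.8 CPM of *Pdilt*.

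Of the metabolic isoenzymes and their somatic partners, 13 of 27 were higher and 9 lower in Tomato-negative and 15 and 8 of 25 in control cells (14 and 6, and 15 and 8, relative to the median gene). The unscaled shares over all genes were 28.3% and 48.5%, and 29.4% and 46.3%. Relative to the median gene 6090 and 5906 of 16082 genes, and 5374 and 5283 of 14409, were higher and lower. Beside *Ldhc*, *Ldha* stood at 1093 and 1138 CPM against 64.65 and 38.18, the glucose transporter gene *Slc2a3* at 809.9 and 935.5 against 32.2 and 29.38, and *Pgam2*, a glycolytic mutase, at 1234 and 1271 against 57.26 and 39.94. The testis forms of respiratory chain genes were also higher, *Cox8c* at 3761 and 2966 CPM against 140.8 and 120.3, *Cox6b2* at 1146 and 983.6 against 87.65 and 85.05, and the cytochrome c gene *Cyct* at 267.8 and 339.4 against 46 and 39.5. Their somatic partners *Cox8a*, *Cox6b1* and *Cycs* were between 0.0262 and 0.12 times the early prophase level. *Gapdh* was low at 24.95 and 28.35 CPM, and its sperm form *Gapdhs* was still at 7.995 and 2.543 CPM, against 371.5 and 570.2 in round spermatids. The glycolytic genes thus did not change over together, *Ldhc* and *Pgam2* being high while *Gapdhs*, *Aldoart1* and *Aldoart2* were low.

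Round spermatids, the next class, were taken by at least 2 *Acrv1* UMIs and at least 2 of *Spaca1*, *Spaca3*, *Spaca7*, *Sun5*, *Tssk2*, *Izumo1* and *Tex36* under the same protamine limit, and numbered 698 and 244. The class also held spermatocyte messages, more often in Tomato-negative cells. A UMI of *Piwil1* was found in 58.6% and 42.62% of its cells, of *Psma8* in 80.37% and 53.69%, and of *Sycp3* in 88.83% and 79.51%. The part of this in the counts below was not tested. Of 18166 genes in Tomato-negative cells, 16.4% were higher and 28.8% lower in the spermatocytes, and of 14407 in control cells 33.5% and 24.4%. The median gene stood at 1.05 and 1.352 times its round spermatid level, and relative to it 33.47% and 44.54% of called genes were higher, in place of 36.34% and 57.79%. Of 14342 genes tested in both libraries, 2421 were higher in both, or 96.03% of those called in Tomato-negative but 50.78% of those called in control cells, 3211 were lower in both, and 21 were called in opposite directions.

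Of the G2 and division genes, 16 of 35 were higher than in round spermatids and 0 lower in Tomato-negative cells, and 19 and 1 of 33 in control cells. Relative to the median gene these counts were 13 and 0, and 12 and 2. Over all genes 16.4% were higher and 28.8% lower, and 33.5% and 24.4%, without scaling. With it 2700 and 5368 of 18166 genes, and 3288 and 4094 of 14407, were higher and lower. *Cdk1* was 4.653-fold and 6.166-fold higher and *Fbxo43* 5.658-fold and 18.75-fold. Of the piRNA genes 7 of 22 and 13 of 21 were higher and 0 lower (6 and 0, and 9 and 1, relative to the median gene). *Slc2a3* was 5.65-fold and 8.086-fold higher. By the interval end nearest to 1, the leading coding genes were *Phf2*, a histone demethylase gene, at 60.53 and 79.48 CPM against 7.348 and 3.707, *Chdh*, a choline dehydrogenase gene, at 52 and 31.89 against 7.029 and 1.853, *Car5a* and *Zfp389*. The other 8 of the 12 were predicted or uncharacterised genes, of which *Gm18337*, at 17.87 and 38.53 CPM, stood highest.

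Among the 8 genes lowest against round spermatids were genes of the sperm head and tail. *Cylc2*, of the perinuclear theca, stood at 1.108 and 0.6594 CPM against 324.2 and 419.2, and *Spag6*, of the axoneme, at 2.149 and 1.107 against 387.6 and 526.2. *Spam1*, a hyaluronidase of the sperm surface, stood at 0.4538 and 0.0942 CPM against 135.4 and 202.5, and the X-linked *Cylc1* and Akap14 stood at or under 0.4138 CPM. *Tex36*, which was used to choose the round spermatids, and the uncharacterised *Gm12434* and *4930573C08Rik* were the others. All 8 markers of elongating spermatids that the rule did not use were lower in both libraries, beside 28.8% and 24.4% of all genes. The 14 round spermatid markers include *Acrv1*, which the rule limited and round spermatids had to hold, and *Spaca1*, which helped to choose the latter. Their count was thus in part fixed by the choice of cells. Of these 14 markers, 12 were lower in each library (13 in control cells relative to the median gene), and 2 were not. The acrosin gene *Acr* stood at 246.6 and 150.4 CPM beside 253.8 and 224.7, and *Dkkl1*, an acrosomal protein gene, at 1370 and 1404 beside 1128 and 1185. *Acr* was 21.22-fold and 30.38-fold above early prophase cells. *Spaca1*, an acrosomal membrane gene used to choose the round spermatids, stood at 6.3 and 1.766 CPM against 614.9 and 594.9.

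Spermatocytes from early to late were ordered by a score of 14 early and 14 late prophase genes, none of them a gene of the rule, after each cell was thinned to 3000 UMIs, and were then divided into 5 equal bins. Within 0.1 of a limit between bins lay 395 Tomato-negative and 282 control cells, so that the bins are ranges of a score. In control cells the order was wide. *Piwil1* stood at 865, 443.5, 291.3, 218.7 and 158.8 CPM from the earliest to the latest bin, and *Psma8* at 467.8 in the earliest and 138.8 in the latest. *Ccna1* ran the other way, at 67.77, 193, 255.8, 294.5 and 340.6 CPM. Genes of the rule that mark these cells together therefore stood high at opposite ends of the order.

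The other genes divided between these patterns. *Tdrd1* went from 432.1 to 60.86 CPM, *Tdrd5* from 189 to 35.46, and the nuclear RNA *Malat1* from 1961 to 299. *Hist1h1t* went from 306.9 to 39.79 CPM although it was entered among the late genes of the score. *Ccnb1* went from 38.2 to 225.7 CPM, *Plk1* from 32.2 to 186.9, *Cdk1* from 74.65 to 187.7 and *Acr* from 94.41 to 172.6. *Tcfl5*, between 788.3 and 844.3 CPM, *Gtsf1*, between 609.1 and 660.5, and *Fbxo43*, between 37.22 and 39.67, hardly varied. *Pgk2*, which is itself in the score, went from 65.57 to 294.1 CPM.

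In Tomato-negative cells only the earliest bin stood apart, and the other 4 were alike. *Piwil1* stood at 233.4 CPM in the earliest bin and between 133.2 and 140.8 in the others, and *Ccna1* at 310.1 and between 362.2 and 372.2. The Sertoli cell gene *Clu*, a marker of another cell type, stood at 76.51 CPM in the earliest and 20.99 in the latest bin, and 23 of the 69 called doublets were in the earliest. Its part in the order was not tested. The X-linked share was 0.2088%, 0.0936%, 0.1014%, 0.1035% and 0.08943% from early to late in Tomato-negative and 0.07165%, 0.0508%, 0.0524%, 0.04675% and 0.04468% in control cells. The latest bin thus stood at 0.4282 (0.4195 to 0.4371) and 0.6236 (0.5977 to 0.6505) times the earliest. In these same bins the median Tomato-negative cell stood at 0.1072% in the earliest and 0.06019% in the latest bin. The median control cell stood at 0.02524% and 0.02713%. With 3 of 4 late markers asked for, the ratios were 0.719 and 0.7138. In control cells without called doublets the ratio was 0.9565 (0.91 to 1.005).

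**Figure D5:**
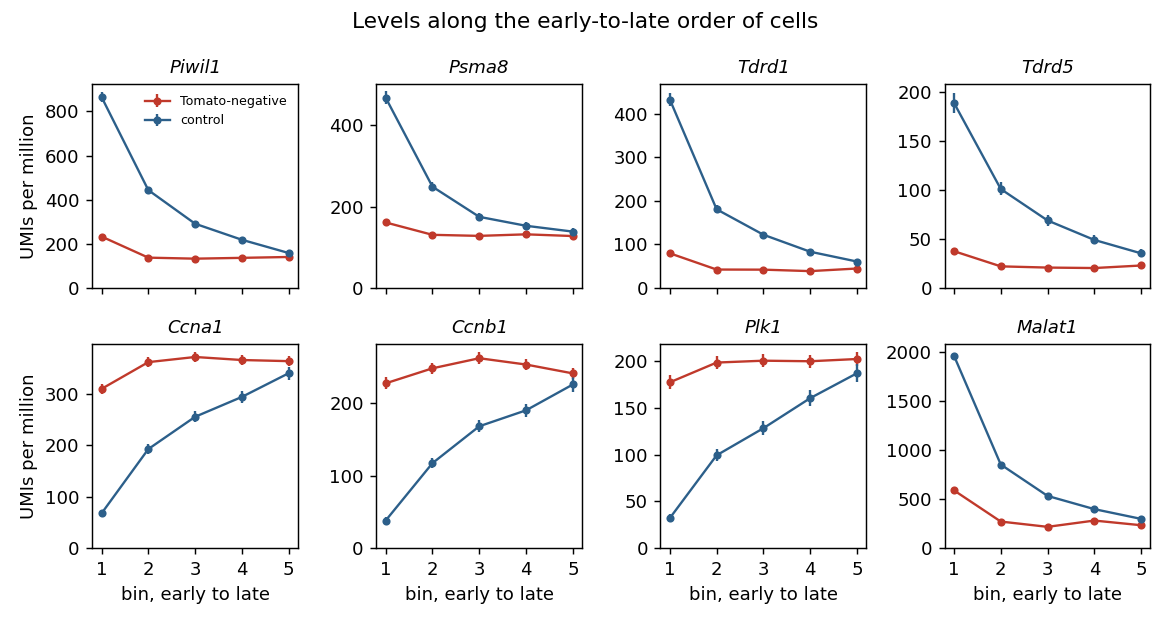
Levels (CPM) of 8 genes in 5 equal bins of pachytene and later cells ordered from early to late, Tomato-negative in red and control in blue, with exact 95% Poisson intervals as bars; each panel has its own axis from 0. Control cells span a wide range, *Piwil1* going from 865 to 158.8 and *Ccna1* from 67.77 to 340.6, while Tomato-negative cells are level after the earliest bin.

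At equal depth the spermatocytes did not express more genes than their neighbours. Thinned to 5000 UMIs, the median cell held 2299 genes in Tomato-negative and 2356 in control spermatocytes, leaving out 6 and 3 shallower cells. Early prophase cells held 2640 and 2673 and round spermatids 2399 and 2436 at the same depth. The 7485 and 6535 genes of the median spermatocyte without thinning thus went with its many UMIs.

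Spermatocytes of the Tomato-negative and control libraries were compared as libraries, without a test. Of 15640 genes 11.1% were at least 2-fold higher and 9% at least 2-fold lower in Tomato-negative cells, with a median ratio of 0.9731. The balance turned when cells were thinned to 3000 UMIs, to 219 higher and 399 lower, and with a minimum of 200 counts, to 640 and 921, in place of 1741 and 1408. The order of the cells moved with the comparison: in the earliest bin *Piwil1* stood at 233.4 CPM in Tomato-negative and 865 in control cells, in the latest at 140.8 and 158.8. Taking only the latest bin of each library, 4.097% of 10179 genes were higher and 1.405% lower. Markers of Sertoli cells moved with it too, with 10 of 10 higher, a sum of 155.9 CPM in Tomato-negative against 7.018 in control spermatocytes, and *Sox9* at 0 in the latter. In somatic cells of the same libraries the sum was 13613.4 and 1010 CPM. Markers of elongating spermatids outside the rule summed to 57.9 against 18.04 CPM, while myoid markers were alike at 55.29 and 53.95. Stromal markers summed to 24.51 and 17.43 CPM and immune markers to 4.298 and 12.43. Without the 49 and 19 cells over 1000 CPM of such a list, 9.385% of 15088 genes were higher and 9.981% lower. The part of other cells' RNA in the differences was not tested.

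The largest single differences were those of a few genes nearly absent from 1 library. *Aldh1l1*, a folate enzyme gene, gave 20446 UMIs in Tomato-negative and 2 in control spermatocytes, 272.9 against 0.0471 CPM, and round spermatids differed alike, at 227.1 against 0.3902. *Esr1*, the estrogen receptor gene, gave 34.58 against 0.0471 CPM and the histidase gene *Hal* 18.7 against 0.02355. *Aldh1l1*, *Esr1*, *Hal*, *Gm48168* and *Gm26754* were low in spermatogonia of the same library, at 1.411 to 12.94 CPM, whereas *Defb19*, *Gm10260*, *Cst12*, *Clu* and *Etd* were higher there than in the spermatocytes, as the Sertoli markers were. The X-linked *Etd*, the last of the 10, stood at 10.05 CPM and gave 0 UMIs in control cells.

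Lower in Tomato-negative spermatocytes were *4930448A20Rik* and *1700123J17Rik*, each with 1 UMI against 8.384 and 8.243 CPM in control cells, and *Spns1*, a lysosomal lipid transporter gene, at 0.6941 against 33.98 CPM. These 3 genes lie on chromosome 7. *Spns1* was alike in spermatogonia of both libraries, at 21.1 and 21 CPM, so that the difference was in the later cells. The metabotropic glutamate receptor gene *Grm4* stood at 0.2536 against 11.94 CPM, and *Gm3507*, *Gm49794*, *CT025671.2*, *5330409N07Rik*, *Gm19428* and *Gm46191* completed the 10. Among the lists, 6 of 22 piRNA genes were lower and 0 higher, with *Tdrd1* at 0.2971, *Tdrd5* at 0.2906 and *Piwil2* at 0.4596 times the control level, and 5 of 14 histone genes were lower and 2 higher, with *Hist1h1t* at 0.08852. In each of these 4 genes the earliest bin of control cells held the highest level of the 5. None of the 34 tested G2 and division genes was 2-fold higher, and 3 were lower. Over all genes 11.1% were higher and 9% lower, so that the lower share of this last list was close to that of all genes.

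The genes of the response to cell dissociation summed to 756.1 and 686.1 CPM, close to the 759.5 and 712 of early prophase cells and above the 596.7 and 577.6 of round spermatids. Of 12 such genes tested in Tomato-negative cells 11 were lower than in early prophase cells and 1 higher, and of 11 in control cells 9 and 1. Relative to the median gene 9 and 8 were lower and 1 higher in each library. Over all genes 48.5% and 46.3% were lower and 28.3% and 29.4% higher without that scaling. Against round spermatids 1 of 11 was higher and 1 lower, and in control cells 6 and 1 of 9 (4 and 1 relative to the median gene). Over all genes 16.4% were higher and 28.8% lower than in round spermatids, and 33.5% and 24.4% in control cells. The immediate early gene *Fos* stood at 13.37 and 13.78 CPM against 75.06 and 105.7. *Dnajb1*, a chaperone gene, was the 1 higher, at 658.5 and 589 CPM against 116.3 and 118.1. It made up most of the sum in the spermatocytes, so that the closeness to the early prophase sums rested on this 1 gene. Between the libraries, 3 of 11 were higher in Tomato-negative cells and 0 lower, beside 11.1% higher and 9% lower over all genes.

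The cKO library held few such cells. By the same rule 21 of 7038 cells were taken, 0.2984% (exact 95% interval 0.1848% to 0.4557%), in place of 13.91% (13.05% to 14.8%) in control and 15.64% (14.75% to 16.57%) in Tomato-negative cells. Among cells with a *Ddx4* UMI they were 21 of 2608 (0.8052%), against 850 of 4431 (19.18%) and 968 of 4518 (21.43%). Per early prophase cell there were 0.02268, 0.5276 and 1.182 of them. The early prophase class of the cKO library held 926 cells, whose early prophase markers summed to 335.7 CPM, against 2771 in control and 2255 in Tomato-negative cells, so that the class was less marked there.

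The 21 cKO cells fell into 2 ranges. In 8 cells with 13428 to 21413 UMIs the X-linked share was 1.733% to 2.236%, near that of early prophase cells and spermatogonia of the same library, at 1.969% and 1.962%. In the other 13 the summed share was 0.04596% (0.04153% to 0.05074%). Of these 13, 12 held 59893 to 83639 UMIs with shares of 0.009058% to 0.1032%, and 1 held 7262 UMIs with 0.2754%. Doublets were called in 0 of the 21. By depth and X-linked share the 12 cells lay within the range of control spermatocytes.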

How the data were processed

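The authors captured testis cells with the Chromium Single Cell 3′ kit v2, counted reads with Cell Ranger 2.1.1 against GRCm38 and clustered the cells in Seurat 3.1. The deposited values are raw UMI counts per gene and cell. The Tomato-negative cells were taken by barcode ending from a merged table, of which 6413 columns, copies of control and cKO cells, were not used. Names were matched to GENCODE M21 for chromosomes. UMIs were summed per class and library and given as CPM with exact Poisson intervals, shares with Clopper-Pearson intervals and ratios with exact conditional binomial intervals, all at 95%. A side at 0 was set to 3 counts. A gene was called at 2-fold with at least 50 counts over both sums. With 1 library per group no p-value was computed. Doublets were called by Scrublet in scanpy 1.11.5 at an expected rate of 0.06. The calculations used Python 3.11.15, numpy 2.4.6, scipy 1.17.1 and pandas 2.3.3 and were tested on simulated data.

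Named genes were those of 27 lists (353 genes), the 12 highest and 8 lowest against each class by the interval end nearest to 1 in both libraries with at least 100 counts, without the 11 genes of the rule, the 10 highest and 10 lowest between libraries, and the 10 most abundant. The cells, the lists and the X-linked ranges were chosen with earlier results of these data known. Promoters came from RefSeq tables, from which *Psma8*, *Pabpc2*, *Pabpc6* and *AC117700.1* were not analysed here.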

Additional observations from a re-analysis of the deposited data

Results flagged for a closer look

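For 2 listed genes, spermatocytes stood below round spermatids in 1 library and above them in the other by at least 2-fold each way, and the difference between the libraries was not tested. The stromal gene *Dcn* was 0.3401 times the round spermatid level in Tomato-negative and 6.089 times in control cells, at 1.535 and 5.346 CPM in the spermatocytes and 4.513 and 0.878 CPM in round spermatids. *Hus1b*, which encodes a part of a DNA damage clamp, was 0.4744 and 2.752 times the round spermatid level, at 0.5873 and 2.685 CPM in the spermatocytes. All of these levels are low beside those of the genes that define the cells.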

How the results depend on the processing

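No paired analysis was possible because each group is 1 library with no replicate, so no sample was left out. Of the recomputed values 95 stayed within their limits and 63 moved, and the cause of a move was not tested. Values are given for Tomato-negative and then control cells.

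Asking for 3 of 4 late markers gave 14.04% and 10.86% of cells, X-linked shares of 0.09788% and 0.04863% and latest to earliest ratios of 0.719 and 0.7138. A limit of 3500 genes, which removes nearly all of these deep cells, left 0.5095% and 0.4949% of cells with X-linked shares of 1.547% and 0.2474%. It left 1400 genes higher and 2007 lower than in early prophase cells and 225 and 228 against round spermatids in Tomato-negative cells, 2257 and 2786, and 181 and 18, in control cells, and 59 higher and 81 lower between libraries, with too few cells for bins. A mitochondrial limit of 5% gave 17.31% of Tomato-negative cells, a share of 0.1125% and a ratio of 0.4643. Without called doublets the X-linked shares were 0.09502% and 0.03771% and the ratios 0.4119 and 0.9565.

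Thinned to 3000 UMIs, the shares were 0.1873% and 0.06534%, with 2626 genes higher and 4375 lower than in early prophase cells and 1319 and 1715 against round spermatids in Tomato-negative cells. In control cells 2563 were higher than in early prophase cells, 2218 higher and 1136 lower than in round spermatids, and between libraries 219 higher and 399 lower, where the balance turned. The mean of per-cell values gave shares of 0.1821% and 0.0652%. With no minimum count, 13864 and 11873 genes were lower than in early prophase cells, 4813 higher and 8412 lower than in round spermatids in Tomato-negative cells, 7598 lower in control cells, and 4141 and 2758 between libraries. With a minimum of 200 counts, 5139 and 4421 were lower than in early prophase cells, 2086 lower than in round spermatids in control cells, and 640 and 921 between libraries, which also turned the balance. In 3 bins the ratios were 0.5792 and 0.7388, and after thinning to 6000 UMIs 0.3647 and 0.7643.

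Settings chosen after the data were seen were the latest bin alone, with shares of 0.08943% and 0.04468%, 2912 genes higher than in round spermatids in control cells and 417 and 143 between libraries, and the cells without UMIs of other cell types over the limit, with shares of 0.09445% and 0.04637%. Also chosen after the data were seen were early prophase cells without a *Kit* UMI and compared cells of at least 10000 UMIs. These moved 0 of their values beyond the limits, as did scaling by the median of ratios and leaving out mitochondrial genes. Within the limits, scaling by the median still turned the balance against early prophase cells. It gave 6090 higher and 5906 lower in Tomato-negative and 5374 and 5283 in control cells. In control cells it also turned the balance against round spermatids, to 3288 and 4094. Against round spermatids in Tomato-negative cells and between libraries the balance did not turn.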
